A study of Arabidopsis thaliana with 6 samples.

Results

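Among 27655 genes counted in RNA of male meiocytes pressed out of Arabidopsis thaliana anthers, 41 were expressed in every Ler library and nearly absent from knu-2. They were selected on measured values: a mean under 0.5 CPM (the count of a gene per 1000000 counts of its library) over the 3 knu-2 libraries, and 2 CPM or more in each of the 3 Ler libraries. AOS (AT5G42650) met both thresholds and is not counted here, and AT2G18450 and genes of the organelles were not considered. Both genotypes chose the members, so the difference between them is a description of the rule and carries no test. The knu-2 plants carry a mutant allele of KNUCKLES (KNU), a zinc finger repressor, and Ler is the strain Landsberg erecta. Anthers of stages 4 to 7 were squeezed open and the cells set free were taken for RNA, with 3 libraries per genotype. The labels call these biological replicates without saying whether they came from separate plants, so any p-value measures the spread between collections. The labels name neither the strain in which knu-2 arose nor a sort of the cells.

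Male meiocytes are the anther cells that enter meiosis, and they lie inside a nursing layer, the tapetum. Meiocytes transcribe the genes of recombination and chromosome pairing, and also many genes of protein turnover. These include genes of F-box proteins, the interchangeable parts of ubiquitin ligases that choose which proteins are degraded. Kelch repeats, which fold into a propeller that binds other proteins, often accompany an F-box in plants.

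KNU itself was at 9.61 ± 4.98 CPM in knu-2 and 68.8 ± 9.54 CPM in Ler (SD, n = 3 each). Library totals were 18070435 to 23199970 counts in knu-2 and 19827980 to 27995200 counts in Ler, so 3 counts, the most a listed 0 may hide, stood for 0.107 to 0.166 CPM. Between 18977 and 19949 genes had a count in a knu-2 library and between 20203 and 20852 in a Ler library. Summed over 17 meiocyte markers such as DMC1 and ASY1, the level was 1500 to 2352 CPM in knu-2 and 4703 to 5486 CPM in Ler, and no marker was at 0 in any library. Of these 17, 16 fell and 1, REC8, rose in knu-2 in the edgeR model. The 12 tapetum markers summed to 1881 to 2930 CPM in knu-2 and 262 to 422 CPM in Ler. Of the 9 that could be tested, 8 rose and 1 fell, and MS1, CYP703A2 and MS2 had no count in any library. Sums of the 7 photosynthesis markers were 1195 to 2983 CPM in knu-2 and 1161 to 1611 CPM in Ler, and those of the 5 pollen markers 8.46 to 52.8 CPM in knu-2 and 15.9 to 45.6 CPM in Ler. None of the 7 and none of the 5 was called. The 3 epidermis markers summed to 83.6 to 141 CPM in knu-2 and 58.4 to 101 CPM in Ler, and the phloem marker SUC2 stood at 0 to 1.77 CPM in knu-2 and 0 to 3.38 CPM in Ler, again with no call. In such pooled cells, fewer cells of a type and less RNA per cell cannot be told apart, and the part of these marker differences in the near-silence of the 41 genes was not tested. None of the markers met the rule.

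The 41 genes summed to 20.2, 3.21 and 8.28 CPM in knu-2 replicates 1 to 3, against 184, 216 and 288 CPM in Ler replicates 1 to 3. Replicate 1 held most of what remained in knu-2: it was the highest knu-2 library for 28 genes, and for 19 genes it was the only knu-2 library with a count. No count was found for 34 of the 41 genes in the second knu-2 library, for 25 in the third and for 4 in the first. Over all 14653 genes with 2 CPM or more in each Ler library, the second knu-2 library lacked counts for 126, the third for 60 and the first for 32. The meiocyte markers summed to 2352 CPM in the first, 1574 CPM in the third and 1500 CPM in the second. Single markers ordered the third and second libraries both ways: DMC1 was at 839 and 725 CPM, and ASY1 at 142 and 179 CPM. The part of these differences in the counts of the members was not tested. The highest value of a member in any knu-2 library was 1.37 CPM, and each member had every knu-2 library below every Ler library. The limits of the rule fix this separation. Low knu-2 values also chose the members, so their many zeros beside the 14653 genes restate the rule.

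**Figure D1:**
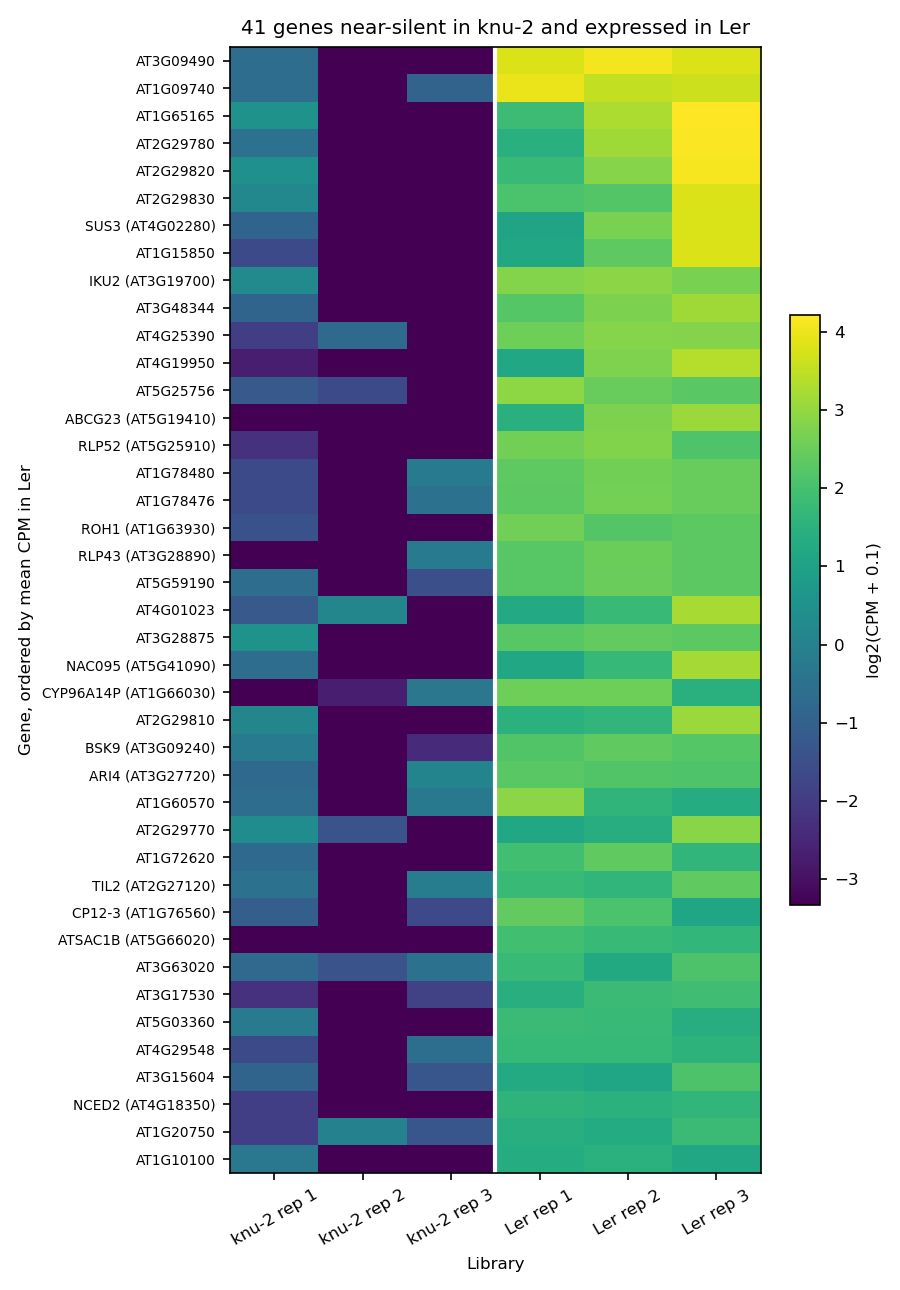
Level of each of the 41 genes in each library, as log2(CPM + 0.1), with the 3 knu-2 libraries left of the 3 Ler libraries and genes ordered by their mean CPM in Ler. Dark cells in knu-2 are genes with no count, 34 of them in replicate 2, and every gene has counts in all Ler libraries.

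All 41 genes passed the filter on low counts. Their log2 fold changes, knu-2 over Ler in the edgeR model, ran from -10.15 to -2.97 with a median of -4.53, while the median over all 18422 genes tested was 0.10. The median was the same when the 2 genes with no knu-2 count were set at their bound. The model called 40 of the 41 lower, with AT3G28875 not called, beside 24.4% of all genes tested, a count that the choice of members fixes. Without knu-2 replicate 1 the median was -8.94, a value that rests on genes then left with no count. Membership depended on single libraries too: 107 genes met the rule without knu-2 replicate 1 and 80 without Ler replicate 1, with 40 and 41 of the present members among them. Without knu-2 replicate 2, 41 genes met it, of which 31 are present members, and without knu-2 replicate 3, 50 genes, of which 33 are. Just inside the knu-2 limit lay ARI4, AT2G29770 and TIL2, at means of 0.481, 0.477 and 0.474 CPM in knu-2. Just outside it lay AT1G61260, AT5G01320 and the pectin methylesterase gene PMEPCRF, at 0.506, 0.515 and 0.533 CPM. At the other limit, SUS3, CP12-3 and AT3G15604 had lowest Ler values of 2.03, 2.07 and 2.11 CPM, and AT1G77730, AT3G27185 and AT1G71740 missed it at 1.96, 1.96 and 1.93 CPM.

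The most compact group was a row of kelch genes on chromosome 2. Within it, 5 near-silent genes (AT2G29770, AT2G29780, AT2G29810, AT2G29820 and AT2G29830) lay on the same strand between positions 12715411 and 12731599 of TAIR10.1. AT2G29780 had 0.604, 0 and 0 CPM in knu-2 replicates 1 to 3, against 2.68, 8.64 and 17.9 CPM in Ler replicates 1 to 3. For AT2G29820 the values were 1.26, 0 and 0 CPM in knu-2, against 3.37, 7.07 and 17.2 CPM in Ler. AT2G29830 stood at 1.04, 0 and 0 CPM in knu-2, against 4.09, 4.47 and 14.1 CPM in Ler. All 3 were highest in Ler replicate 3, and their few knu-2 counts came from replicate 1. AT2G29810 had 0.989, 0 and 0 CPM in knu-2 and 2.71, 3.00 and 8.32 CPM in Ler, and AT2G29770 had 1.15, 0.277 and 0 CPM in knu-2 and 2.14, 2.50 and 7.21 CPM in Ler. AT2G29770 overlaps OTP81 on the other strand, and no source used here says if reads were assigned by strand.

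Another pair of kelch genes in the row missed the rule. AT2G29800, between AT2G29790 and AT2G29810, had 1.76, 0 and 0 CPM in knu-2, against 3.29, 9.25 and 27.2 CPM in Ler. Its log2 fold change of -4.79 (SE 1.77, edgeR adjusted p = 0.0799) did not pass the threshold, and did so without knu-2 replicate 1 (edgeR adjusted p = 0.00432). AT2G29860, past the far end of the row, had 0.0549, 0 and 0 CPM in knu-2 and 0.956, 1.54 and 2.47 CPM in Ler, and fell (log2 fold change -6.44, SE 1.44, edgeR adjusted p = 0.00334). Its fold change was -8.38 without knu-2 replicate 1 and -5.67 with limma-voom. Genes of other kinds lie in the same stretch. AT2G29790, annotated as maternally expressed, was at 0, 0 and 0.647 CPM in knu-2 and 0.382, 0.107 and 0.353 CPM in Ler, and AT2G29840 had no count in knu-2 and 5 counts in Ler replicate 1 alone. AT2G29850 was higher in each knu-2 library, at 1.21, 2.38 and 1.94 CPM in knu-2 and 0.382, 0.536 and 0 CPM in Ler, and was not called (log2 fold change 2.21, edgeR adjusted p = 0.146). OTP81, an RNA-editing factor of the pentatricopeptide class at the near end, was at 16.0, 9.57 and 14.6 CPM in knu-2, against 15.6, 20.8 and 19.1 CPM in Ler.

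**Figure D2:**
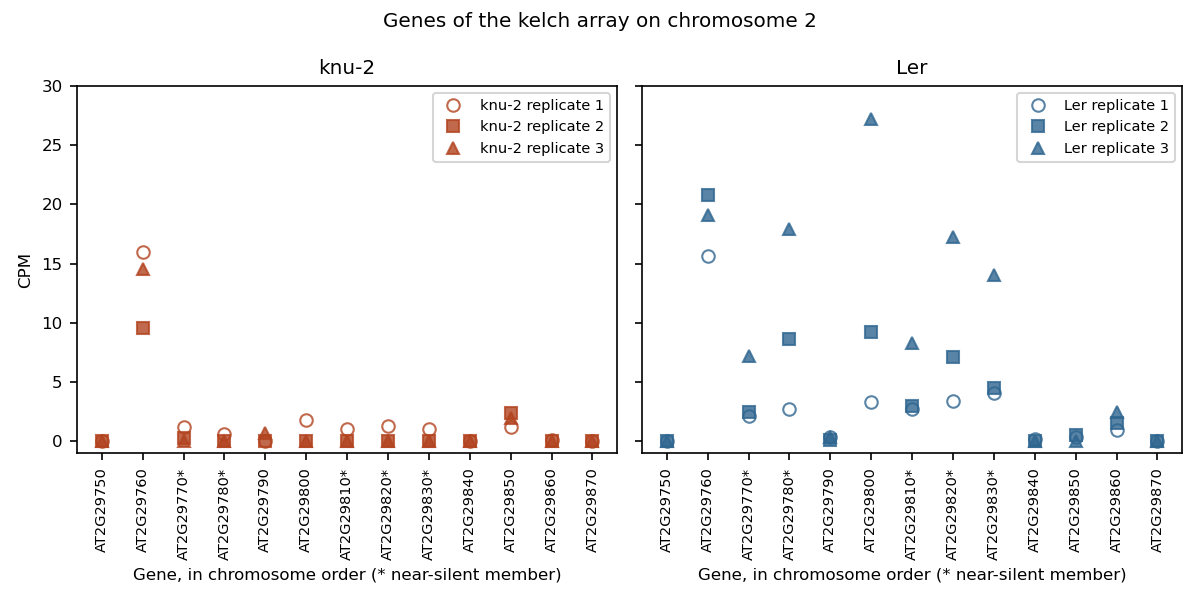
CPM (linear axis) of the genes around the kelch row on chromosome 2, in chromosome order, with the knu-2 libraries in the left panel and the Ler libraries in the right one. Asterisks mark near-silent members, which lie at or below 1.26 CPM in knu-2 and reach 7.21 to 17.9 CPM in Ler replicate 3.

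The proteins of the 5 near-silent genes of the row were 41.0% to 66.4% identical to each other, AT2G29820 and AT2G29830 being closest among them. None of the 41 genes had a paralog of 90% identity or more. The 300 bases around each gene start (250 before to 50 after) are shown because these 5 genes of 1 row were all near-silent in knu-2 and all highest in Ler replicate 3. They were read from the RefSeq TAIR10.1 genome, 5′ to 3′ on the minus strand of each gene. Capitals mark AACGG (the core of an element known from genes of mitosis), CACGTG (the G-box) and TATAAA, each on either strand. In AT2G29810 and AT2G29820 the gene model begins at the start codon, so the last 50 bases are coding. The last 50 bases of AT2G29780 open with an ATG too. Those of AT2G29770 and AT2G29830 hold an ATG, so part of them may also be coding.
AT2G29770, chr2:12716826-12717125: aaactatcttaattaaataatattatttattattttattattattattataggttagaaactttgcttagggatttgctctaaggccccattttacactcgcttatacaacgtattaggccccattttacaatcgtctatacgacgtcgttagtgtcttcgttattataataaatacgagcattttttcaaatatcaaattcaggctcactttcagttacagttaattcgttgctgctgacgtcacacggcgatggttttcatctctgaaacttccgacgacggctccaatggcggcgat
AT2G29780, chr2:12719279-12719578: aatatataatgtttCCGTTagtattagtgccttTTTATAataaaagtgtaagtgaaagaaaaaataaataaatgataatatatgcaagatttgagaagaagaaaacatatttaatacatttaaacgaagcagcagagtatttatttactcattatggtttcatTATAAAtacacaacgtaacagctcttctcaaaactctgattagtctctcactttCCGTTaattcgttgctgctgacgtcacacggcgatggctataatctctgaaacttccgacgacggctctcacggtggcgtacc
AT2G29810, chr2:12727204-12727503: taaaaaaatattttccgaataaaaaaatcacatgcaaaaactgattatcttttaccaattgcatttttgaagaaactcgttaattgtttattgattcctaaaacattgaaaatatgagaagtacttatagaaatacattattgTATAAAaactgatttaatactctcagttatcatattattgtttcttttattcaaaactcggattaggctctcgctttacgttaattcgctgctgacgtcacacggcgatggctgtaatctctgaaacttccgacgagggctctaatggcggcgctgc
AT2G29820, chr2:12729479-12729778: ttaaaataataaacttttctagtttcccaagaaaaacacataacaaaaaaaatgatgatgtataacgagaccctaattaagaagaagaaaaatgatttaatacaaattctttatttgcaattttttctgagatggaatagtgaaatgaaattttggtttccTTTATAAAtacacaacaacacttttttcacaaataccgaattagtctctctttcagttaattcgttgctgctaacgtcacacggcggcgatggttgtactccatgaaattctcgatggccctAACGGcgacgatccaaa
AT2G29830, chr2:12731550-12731849: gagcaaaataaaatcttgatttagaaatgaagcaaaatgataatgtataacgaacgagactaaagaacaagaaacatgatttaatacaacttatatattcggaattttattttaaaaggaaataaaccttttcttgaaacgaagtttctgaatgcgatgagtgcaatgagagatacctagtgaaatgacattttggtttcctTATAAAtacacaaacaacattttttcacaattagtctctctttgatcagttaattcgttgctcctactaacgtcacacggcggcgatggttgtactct

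Pairs of these windows were 49.7% to 64.1% identical in a global alignment, with AT2G29780 and AT2G29820 the most alike. TATAAA occurred in 4 of the 5 (2 times each in AT2G29780 and AT2G29820, once each in AT2G29810 and AT2G29830), and AACGG in AT2G29780 (2 times) and AT2G29820 (once). In AT2G29820 the 2 TATAAA matches overlap on opposite strands of the stretch TTTATAAA, and the AACGG lies in the coding last 50 bases. CACGTG was in none of them.

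Among the other genes of protein turnover, AT1G65165 was the highest in Ler. It encodes an inactive ubiquitin carboxyl-terminal hydrolase and had 1.32, 0 and 0 CPM in knu-2, against 3.52, 9.57 and 18.4 CPM in Ler. Its libraries followed the order of the kelch row, with Ler replicate 3 highest. AT1G65160, of the same family, overlaps it on the same strand, so reads could be split between them, and it was at 0.549, 0 and 0 CPM in knu-2 and 0.765, 4.04 and 8.83 CPM in Ler. AT1G60570, a kelch gene on chromosome 1, ran the other way among the Ler libraries, with 0.549, 0 and 0.733 CPM in knu-2 and 7.42, 2.96 and 2.42 CPM in Ler. AT4G01023, a RING or U-box protein, had 0.330, 0.996 and 0 CPM in knu-2, against 2.33, 3.36 and 9.33 CPM in Ler. The F-box gene AT3G17530 had 0.110, 0 and 0.172 CPM in knu-2 and 2.60, 3.39 and 3.63 CPM in Ler. AT5G59190, a subtilisin-like protease, was steadier, at 0.549, 0 and 0.259 CPM in knu-2 and 4.70, 5.54 and 4.89 CPM in Ler.

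ARI4, a ubiquitin ligase of the ARIADNE class, had 0.494, 0 and 0.948 CPM in knu-2, against 4.78, 4.43 and 4.29 CPM in Ler. It overlaps RCK, a meiotic crossover helicase on the other strand, which was at 44.6, 1.88 and 3.71 CPM in knu-2 and 317, 256 and 302 CPM in Ler. The difference of RCK was not called by edgeR with all libraries (edgeR adjusted p = 0.063) and was without knu-2 replicate 1 (3.7e-07). With all libraries it was called by DESeq2 (adjusted p = 0.000687) and limma-voom (adjusted p = 2e-05). Without strand, reads of ARI4 and RCK cannot be told apart. ARI3, the next gene on the same strand and its closest paralog (71.6% identity), rose, with 8.52, 10.2 and 4.18 CPM in knu-2 against 1.07, 1.32 and 1.06 CPM in Ler (log2 fold change 2.38, SE 0.49, edgeR adjusted p = 0.00193). 

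Receptor and kinase genes made up 5 of the 41. IKU2 encodes a leucine-rich repeat receptor kinase known for its control of endosperm growth and seed size. It had 1.1, 0 and 0 CPM in knu-2, against 6.92, 7.32 and 6.35 CPM in Ler, and the Ler values lay close together. RLP52 and RLP43 are receptor-like proteins, which have outer leucine-rich repeats and no kinase. RLP52 had 0.110, 0 and 0 CPM in knu-2 and 5.97, 6.75 and 4.29 CPM in Ler. That is 173-fold lower in knu-2 on summed counts (exact 95% counting interval 47.6 to 1432, from 2 knu-2 counts). The rule chose RLP52 on these same counts, so the interval describes counting error and tests nothing. RLP43 had 0, 0 and 0.776 CPM in knu-2 and 4.70, 5.61 and 4.84 CPM in Ler, so its knu-2 counts came from replicate 3. The kinase gene AT4G25390 stood at 0.165, 0.498 and 0 CPM in knu-2 and 5.70, 7.00 and 6.96 CPM in Ler. BSK9, of the brassinosteroid signalling kinases, was at 0.769, 0 and 0.0862 CPM in knu-2 and 4.40, 5.07 and 4.54 CPM in Ler. It overlaps MYB1 (AT3G09230) on the other strand, which averaged 8.82 CPM in knu-2 and 6.30 CPM in Ler.

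Enzymes and carriers formed another group. ABCG23, a transporter of the ABCG half-size class, had no count in knu-2, against 2.68, 6.50 and 8.32 CPM in Ler. ATSAC1B, a phosphatase that removes phosphate from phosphoinositide lipids, also had no count in knu-2, against 3.71, 3.25 and 3.08 CPM in Ler. With a floor of 3 counts over the 3 knu-2 libraries together, ABCG23 was at least 112-fold and ATSAC1B at least 66.7-fold lower in knu-2. These 2 were the only members with no count in any knu-2 library, and their start regions are printed for that reason, with capitals as above.
ABCG23, chr5:6547128-6547427, minus strand: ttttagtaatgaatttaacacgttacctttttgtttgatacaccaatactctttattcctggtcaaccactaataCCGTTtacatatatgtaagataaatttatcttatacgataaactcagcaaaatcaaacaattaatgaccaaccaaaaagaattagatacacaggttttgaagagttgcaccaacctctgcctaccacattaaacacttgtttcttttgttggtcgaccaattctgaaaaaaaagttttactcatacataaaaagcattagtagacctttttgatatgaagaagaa
ATSAC1B, chr5:26404676-26404975, minus strand: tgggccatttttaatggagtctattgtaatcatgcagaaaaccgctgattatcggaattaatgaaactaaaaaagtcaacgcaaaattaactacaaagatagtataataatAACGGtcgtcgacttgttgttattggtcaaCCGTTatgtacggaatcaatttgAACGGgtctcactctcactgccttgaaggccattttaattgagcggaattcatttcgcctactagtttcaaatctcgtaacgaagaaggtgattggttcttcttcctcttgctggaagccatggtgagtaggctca

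AACGG occurred once before or at the start of ABCG23 and 3 times at that of ATSAC1B, and TATAAA in neither. SUS3, a sucrose synthase that splits sucrose for use in metabolism, had 0.439, 0 and 0 CPM in knu-2 and 2.03, 6.36 and 13.7 CPM in Ler, with replicate 3 highest again. NCED2, of the dioxygenases that open the route to abscisic acid, had 0.165, 0 and 0 CPM in knu-2 and 2.87, 2.68 and 3.03 CPM in Ler. That is 56.3-fold lower in knu-2 on summed counts (exact 95% counting interval 19.0 to 275, from 3 knu-2 counts). As for RLP52, the interval describes counting error in counts that the rule used. CP12-3, of a family of small chloroplast proteins that regulate the Calvin cycle, had 0.385, 0 and 0.216 CPM in knu-2, against 5.16, 4.14 and 2.07 CPM in Ler.

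The remaining enzymes were an alpha/beta hydrolase, a prenyltransferase-like gene and a P450. AT1G72620, the hydrolase, had 0.494, 0 and 0 CPM in knu-2 and 3.71, 5.11 and 3.03 CPM in Ler. AT1G78480, the prenyltransferase-like gene, and AT1G78476 overlap on opposite strands with nearly the same counts, and without strand their reads cannot be told apart. The levels were 0.220, 0 and 0.776 CPM in knu-2 and 5.01, 6.00 and 5.35 CPM in Ler for AT1G78480. They were 0.220, 0 and 0.603 CPM in knu-2 and 4.86, 6.07 and 5.35 CPM in Ler for AT1G78476. CYP96A14P, a P450 gene whose symbol marks it as a pseudogene, had 0, 0.0553 and 0.690 CPM in knu-2 and 5.70, 5.79 and 2.67 CPM in Ler. AT1G09740, an adenine nucleotide alpha hydrolase-like gene, was among the highest of all, at 0.549, 0 and 0.431 CPM in knu-2 and 15.8, 11.4 and 12.3 CPM in Ler. It overlaps AT1G09730 on the other strand, which was at 84.7, 67.3 and 73.1 CPM in knu-2 and 125, 105 and 109 CPM in Ler.

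TIL2 encodes a catalytic subunit of DNA polymerase epsilon, which copies the leading strand at replication forks, and had 0.604, 0 and 0.819 CPM in knu-2 and 3.37, 3.04 and 5.04 CPM in Ler. NAC095, a NAC transcription factor, had 0.549, 0 and 0 CPM in knu-2, against 2.18, 3.21 and 8.98 CPM in Ler. AT1G20750, a helicase of the RAD3 class, had 0.165, 0.885 and 0.302 CPM in knu-2 and 2.60, 2.36 and 3.38 CPM in Ler, and was one of the 2 members with counts in every knu-2 library, with AT3G63020. AT1G15850, a WD40 repeat gene, had 0.220, 0 and 0 CPM in knu-2 and 2.18, 4.97 and 13.8 CPM in Ler.

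The member with the highest mean in Ler was AT3G09490, a tetratricopeptide repeat gene, at 0.549, 0 and 0 CPM in knu-2 and 14.0, 16.9 and 13.9 CPM in Ler. AT4G19950, annotated as similar to a partner of a polyadenylate-binding protein, had a single count in knu-2 (0.0549, 0 and 0 CPM) and 2.14, 6.64 and 10.3 CPM in Ler. ROH1, named for a protein that binds the exocyst, a complex that docks secretory vesicles, had 0.275, 0 and 0 CPM in knu-2 and 6.04, 4.50 and 4.89 CPM in Ler. AT3G28875, an ankyrin repeat gene, had 1.37, 0 and 0 CPM in knu-2 and 4.70, 5.14 and 4.84 CPM in Ler. AT5G03360, a C1 domain gene, had 0.769, 0 and 0 CPM in knu-2 and 3.44, 3.32 and 2.47 CPM in Ler, and AT3G63020, of unknown function, had 0.494, 0.277 and 0.603 CPM in knu-2 and 3.37, 2.29 and 4.19 CPM in Ler.

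Annotated only as uncharacterized were 7 members: AT3G48344, AT5G25756, AT1G78476, ROH1 (by its product line), AT4G29548, AT3G15604 and AT1G10100. Apart from AT1G78476 and ROH1, their Ler libraries lay between 2.11 and 8.62 CPM and their knu-2 libraries between 0 and 0.714 CPM. AT3G15604 overlaps AT3G15605 on the other strand, which averaged 15.8 CPM in knu-2 and 72.0 CPM in Ler. Per kilobase of gene model, the mean Ler level was highest for AT5G25756 (21.4 CPM per kb), AT1G65165 (20.9) and AT3G15604 (17.5), all with short models, and lowest for TIL2 (0.584).

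The Ler libraries fell into a recurrent pattern. Of the 41 genes, 12 stood at 3 or more times the CPM in Ler replicate 3 that they had in Ler replicate 1: the 5 kelch genes of the row, AT1G65165, SUS3, AT1G15850, AT4G19950, ABCG23, AT4G01023 and NAC095. That is 29.3% of the members. Over the 5357 genes with mean Ler levels in the same range (2.42 to 14.9 CPM), members included, the share was 1.94%. By contrast, 19 members, AT3G09490, AT1G09740 and IKU2 among them, had a highest Ler library under 1.5 times the lowest. The median ratio of highest to lowest Ler library was 1.58 for the members and 1.49 for the genes of the same range. Among the other 92 genes of that range with the same excess in Ler replicate 3, 14 were called lower (15.2%) and 10 higher (10.9%) in knu-2 by edgeR. Over all 5316 genes of that range, members left out, 6.25% were called lower and 36.7% higher, and over all genes tested 24.4% and 23.6%. In Ler replicates 1, 2 and 3 the meiocyte markers summed to 5486, 4946 and 4703 CPM, the tapetum markers to 262, 375 and 422 CPM and the pollen markers to 45.6, 15.9 and 41.3 CPM. The part of these differences between Ler libraries in the pattern was not tested.

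**Figure D3:**
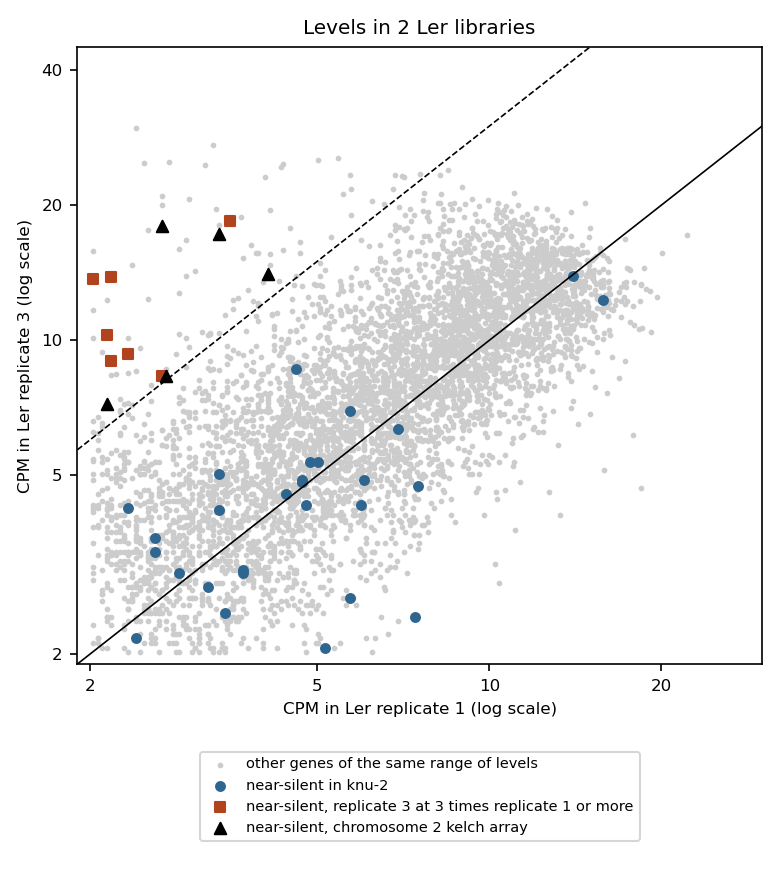
CPM in Ler replicate 3 against CPM in Ler replicate 1, both on log scales, for the 41 genes (circles, squares and triangles) and for the genes of the same range of mean Ler levels (grey). The solid line marks equal values and the dashed line 3 times as much in replicate 3, above which lie 12 of the 41 genes, the 5 kelch genes of the chromosome 2 row among them.

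Place was not used by the rule. The members lay on all 5 chromosomes, with 12, 6, 10, 6 and 7 on chromosomes 1 to 5. None of the 41 lay within 2 Mb of KNU on chromosome 5, which allows a share of up to 7.32%, and 5.03% of the 14653 genes expressed in Ler did. Of the 41, 13 started within 100 kb of another member, and 7 had another member as a direct neighbour: the kelch genes AT2G29770 with AT2G29780, and AT2G29810, AT2G29820 and AT2G29830 in a run, and the overlapping pair AT1G78476 and AT1G78480. The gene models were shorter than usual, with a median of 1189 bp against 1870 bp over the genes expressed in Ler, and had a median of 2 exons against 5. Single-exon genes made up 17 of the 41 (41.5%), against 11.5% of the genes expressed in Ler. The proteins were of more usual size, with a median of 383 amino acids against 415. Of the 41, 9 overlapped another gene (21.95%), against 33.7% of the genes expressed in Ler. The 68 genes of the opposite kind, under 0.5 CPM on average in Ler and at 2 CPM or more in each knu-2 library, had a median length of 1326 bp and 4 exons, and 22.1% had a single exon. No test of these differences was made. The genes expressed in Ler had a median of mean Ler levels of 24.6 CPM, against 5.01 CPM for the members. CPM is not corrected for gene length, and structure was not compared with genes of matched level.

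Genes beside the near-silent ones were compared next, since neighbours were not chosen by their values. The 41 genes had 73 different neighbours that were not themselves members, of which 55 passed the filter on low counts. Of these 55, edgeR called 23 lower (41.8%) and 7 higher (12.7%) in knu-2, beside 24.4% lower and 23.6% higher of all genes tested. Among neighbours of all genes expressed in Ler, 25.4% were called lower and 23.4% higher. With the neighbours that overlap a member left out, 19 of 49 were lower (38.8%) and 7 higher. Leaving out 1 library at a time gave 17 to 27 lower neighbours. The fewest were 17 of 56 (30.4%) without Ler replicate 3, beside 20.6% of all genes tested. The most were 27 of 56 (48.2%) without knu-2 replicate 1, beside 24.9%. With no scaling beyond library totals 18 of 55 were lower (32.7%), beside 19.0% of all genes tested.

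Several of these neighbours were much lower in knu-2 than in Ler, some of them at knu-2 levels above those of the members. AT3G48343 and AT3G48346 flank AT3G48344. AT3G48343 had no count in knu-2, against 2.71, 2.96 and 1.66 CPM in Ler, and fell (edgeR adjusted p = 0.00085), while AT3G48346 had 2.14, 0 and 1.81 CPM in knu-2 and 11.1, 10.9 and 12.0 CPM in Ler (log2 fold change -3.36, SE 1.00, edgeR adjusted p = 0.0297). AT3G48346 missed the threshold when a Ler library, whichever it was, or the third knu-2 library was left out (edgeR adjusted p = 0.0504 to 0.0884), with the replicate block (0.0825) and with no filter on low counts (0.0677). With limma-voom its fold change was -4.87. AT3G28880, an ankyrin repeat gene between AT3G28875 and RLP43, had 9.29, 0.221 and 2.50 CPM in knu-2, against 39.5, 41.0 and 44.8 CPM in Ler. It did not pass the threshold with all libraries (log2 fold change -3.66, SE 1.14, edgeR adjusted p = 0.0517) and did without knu-2 replicate 1 (-5.17, edgeR adjusted p = 0.0024) or 2 (0.0041). With all libraries it was called by DESeq2 (adjusted p = 0.00496) and limma-voom (adjusted p = 0.000257), and by edgeR with only genes averaging 5 CPM or more (0.0449) and with no scaling beyond library totals (0.0444).

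VIM4, which lies 11 bp from CYP96A14P and belongs to a family of RING proteins that bind methylated DNA, had 2.03, 0.0553 and 1.03 CPM in knu-2, against 23.0, 18.7 and 22.9 CPM in Ler (log2 fold change -4.64, SE 0.81, edgeR adjusted p = 0.00277). The fold change of VIM4 was -5.52 without knu-2 replicate 1 and -5.58 with limma-voom. AT3G09480, a histone family gene 107 bp from AT3G09490, had 12.3, 6.86 and 3.45 CPM in knu-2 and 63.6, 67.7 and 64.9 CPM in Ler (log2 fold change -3.44, SE 0.42, edgeR adjusted p = 0.000256), and -4.07 without knu-2 replicate 1. Next to AT5G59190, OTP80 (AT5G59200), an RNA-binding protein of the pentatricopeptide class, fell (log2 fold change -3.32, SE 0.60, edgeR adjusted p = 0.000897), and stood at -4.15 without knu-2 replicate 1. AT1G65160 fell (-4.90, SE 1.47, edgeR adjusted p = 0.0225), but missed the threshold when the second Ler library, the third Ler library or the second knu-2 library was left out (edgeR adjusted p = 0.0526 to 0.0888), with limma-voom (limma adjusted p = 0.0759) and with the replicate block (edgeR adjusted p = 0.106). Without knu-2 replicate 1 its fold change was -9.82, without knu-2 replicate 3 -4.30, and without Ler replicate 3 -3.98.

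Among other neighbours, some were higher or near level and some fell. On the far side of AT3G09490, the ribosomal protein gene AT3G09500 was at 741, 770 and 772 CPM in knu-2 and 482, 506 and 471 CPM in Ler (log2 fold change 0.33, SE 0.15, edgeR adjusted p = 0.096), called higher without knu-2 replicate 2 (0.0356), with only genes averaging 5 CPM or more (0.0251) and with no scaling beyond library totals (0.000749). GA3, an enzyme of gibberellin synthesis that lies 436 bp from RLP52, rose by 1.83 on the log2 scale (SE 0.19, edgeR adjusted p = 3e-05). AT5G25757, beside AT5G25756 and annotated only by its product line as an RNA polymerase I-associated factor, rose by 1.34 (SE 0.17, edgeR adjusted p = 7.9e-05). AT5G25755, on the other side of AT5G25756, fell by 2.68 (SE 0.53, edgeR adjusted p = 0.00197). Beside ABCG23, AT5G19420 fell by 2.17 (SE 0.22, edgeR adjusted p = 2.7e-05).

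**Figure D4:**
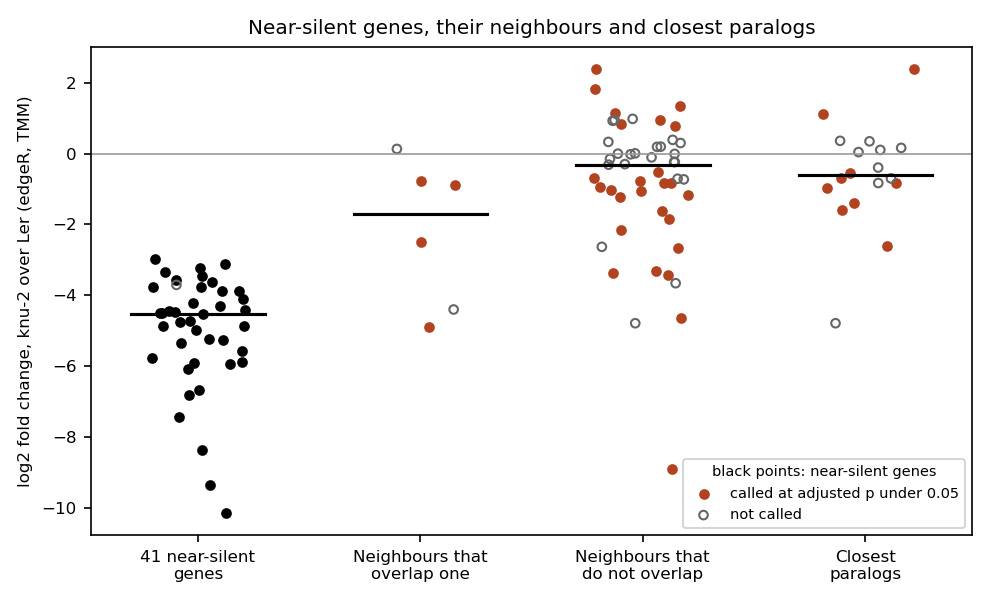
Log2 fold change, knu-2 over Ler, of the 41 genes, of their neighbours that overlap a member, of those that do not, and of the closest paralogs, 1 point per gene that passed the filter, with filled points called by edgeR and short lines at the medians. Members lie between -10.15 and -2.97, while the neighbours that do not overlap have a median of -0.31 and the paralogs one of -0.62.

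Closest paralogs were taken from the proteins, at 40% identity or more over 60% or more of the member. Such a paralog was found for 31 of the 41 genes, and for 4 of these, all in the kelch row, it was another member. Of the 27 different paralogs that were not members, 18 passed the filter, and edgeR called 7 lower (38.9%) and 2 higher (11.1%), beside 24.4% and 23.6% of all genes tested. With no scaling beyond library totals 4 were lower (22.2%), beside 19.0% of all genes. The paralogs of TIL2, ATSAC1B, ARI4 and CP12-3 are named after their values were seen. RHD4, 85.8% identical to ATSAC1B and known for its part in root hair growth, had 151, 94.0 and 130 CPM in knu-2 and 327, 308 and 277 CPM in Ler (log2 fold change -1.58, SE 0.22, edgeR adjusted p = 0.000154). TIL1, the main catalytic subunit of polymerase epsilon and 85.3% identical to TIL2, had 149, 95.2 and 121 CPM in knu-2 and 163, 135 and 178 CPM in Ler. Its log2 fold change of -0.68 (SE 0.21, edgeR adjusted p = 0.02) lost its call without Ler replicate 1 or 3 (0.0668 and 0.0787) and with no scaling beyond library totals (0.0992).

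RAE1, a nuclear pore protein 77.1% identical to the short AT1G15850 protein, had 121, 86.8 and 95.7 CPM in knu-2 and 200, 211 and 230 CPM in Ler (log2 fold change -1.38, SE 0.19, edgeR adjusted p = 0.00013). The receptor kinase gene AT1G09970, closest to IKU2, had 23.9, 14.4 and 10.3 CPM in knu-2 and 90.6, 76.7 and 70.9 CPM in Ler (-2.61, SE 0.30, edgeR adjusted p = 7.2e-05). AT5G44860, 83.2% identical to AT4G19950, was at 10.2, 20.4 and 16.4 CPM in knu-2 and 11.3, 12.5 and 12.4 CPM in Ler, and the genotypes overlapped. SUS2 stood at 2.14, 3.04 and 5.73 CPM in knu-2, against 5.58, 4.82 and 5.40 CPM in Ler, also overlapping (-0.83, SE 0.47, edgeR adjusted p = 0.169, and 0.0323 without knu-2 replicate 3). CP12-1 rose by 1.12 on the log2 scale (SE 0.29, edgeR adjusted p = 0.00895), with 41.5, 97.4 and 42.7 CPM in knu-2 against 20.6, 26.4 and 18.4 CPM in Ler.

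Families were read from fixed keywords in the RefSeq product names, of which 3 held more than 1 member. Kinases gave 3 members (IKU2, AT4G25390 and BSK9), 7.32% of the 41 against 5.55% of the genes expressed in Ler. Of all 1045 kinase genes tested, 238 were called lower (22.8%) and 261 higher (25%). Over all genes tested the shares were 24.4% and 23.6%. Tetratricopeptide genes gave 2 (AT3G09490 and BSK9), 4.88% against 1.8%, with 92 of 294 called lower (31.3%) and 48 higher (16.3%). Receptor genes gave 2 (RLP52 and RLP43), 4.88% against 1.06%, with 54 of 218 called lower (24.8%) and 47 higher (21.6%). Kelch was added as a keyword after the members were seen: it gave 6 members, 14.6% of the 41, and 0.423% of the genes expressed in Ler bear it. Of 78 kelch genes tested, 23 were called lower (29.5%) and 15 higher (19.2%), with a median log2 fold change of 0.00. With no scaling beyond library totals, which shifted all fold changes by a median of 0.32, 3 of these families had more higher than lower calls in place of the reverse: 21 kelch genes were lower and 22 higher, 57 tetratricopeptide genes lower and 72 higher, and 39 receptor genes lower and 67 higher. Kinase genes then stood at 182 lower and 357 higher, and all genes tested at 3499 lower and 6149 higher. With DESeq2 size factors 259 kinase genes were lower and 241 higher, beside 4750 lower and 4035 higher of all genes tested.

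Start regions of all 41 genes were searched on both strands for 7 short words. AACGG was found in 15 of the 41 (36.6%), against 24.6% of all 27444 regions of that length and 28.1% of those of genes expressed in Ler. TTTCCCGC, a word bound by E2F factors, was in 2 (4.88%), AT1G72620 and AT1G20750. It was in 0.798% of all regions and 1.15% of those of genes expressed in Ler. For TTTGGCGC, found in no member, these shares were 0.434% and 0.5255%. In the same order, TATAAA was in 16 (39.0%), against 52.1% and 49.15%, and CCAAT in 20 (48.8%), against 51.6% and 54.8%. CACGTG was in 2 (4.88%), against 7.68% and 8.99%, and CANNTG, which includes CACGTG, in 24 (58.5%), against 61.7% and 61.85%. These are matches of letters in a window and were not tested.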

How the data were processed

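Polyadenylated RNA was captured, fragmented and copied with random hexamers, per the labels' protocols, with no strand-marking step named. The authors deposited 1 whole-number count per gene and library, not normalized as judged from the values, with each gene's length in bp as another value. Which aligner, counter and genome build the authors used is not stated. Of 27655 genes, 27445 were found in the RefSeq TAIR10.1 annotation and 99.4% of these had exactly its merged exon length, so its coordinates and genome were used. Same-genotype libraries all differed beyond sampling noise (chi-square over its degrees of freedom, 20.3 or more).

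Labels gave the genotype and the replicate number. CPM here is per library total. In R 4.3.3, genes were filtered with filterByExpr, scaled by TMM and tested with edgeR 4.0.16 (robust quasi-likelihood, genotype as the sole term), tested on simulated data. Every adjusted p is Benjamini-Hochberg with a threshold of 0.05, over the 18422 genes that passed the filter with all libraries or over those that passed it under the alternative named, standard errors come from the test statistic, and a p in brackets that follows one comes from the same model. limma 3.58.1 (voom) and DESeq2 1.42.0 served as alternatives. Intervals and floors of 3 counts cover counting error only, not the spread between libraries. They rest on counts that the rule used, so they describe the members and test nothing.

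Neighbours are the genes of the table just before and after in order of start. Proteins were translated from the reference and compared with blastp 2.17.0 at an E-value limit of 1e-05, and start regions were aligned with Biopython 1.88. The members, gene lists and tests were chosen with earlier results of these data known. The naming rule covered the 25 members highest in Ler, those with no knu-2 count, those nearest the thresholds, members that adjoin another, families with 2 or more members, and neighbours and paralogs of the 25. The other members are named so that all are accounted for, and the other neighbours and paralogs were chosen after their values were seen. The marker entries PKSA and PKSB were dropped because the reference names them LAP6 and LAP5. Other entries with a different reference symbol, such as TAM and REC8, were kept. Of the dropped entries, PKSA was not called (log2 fold change 0.41, edgeR adjusted p = 0.26). PKSB rose (1.14, edgeR adjusted p = 0.000972).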

Additional observations from a re-analysis of the deposited data

How the results depend on the processing

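The number of genes meeting the rule depended on its limits: 20 with a knu-2 mean under 0.25 CPM, 94 under 1 CPM, 15 with every knu-2 library under 0.5 CPM, 109 with 1 CPM and 5 with 5 CPM or more in each Ler library, and 41 to 107 with 1 library left out, of which 31 to 41 are present members. With TMM-scaled CPM it was 56, which included all 41. The median log2 fold change of the members was -6.03 with limma-voom, -5.57 with the replicate block, -5.51 when only genes averaging 5 CPM or more were tested, which kept 3 members, and -8.94 to -4.15 with 1 library left out. The cause was not tested apart from the smaller number of members.

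Lower closest paralogs numbered 4 with no scaling beyond library totals and 3 at 70% identity or more, where 7 were tested, and 6 to 9 with 1 library left out. Lower neighbours numbered 17 to 27 with 1 library left out and 18 to 25 under the other settings, and all calls over the transcriptome 7284 to 9648. The share of all genes tested that was called lower ran from 19.0% with no scaling to 28.9% with only genes averaging 5 CPM or more. With no scaling beyond library totals 63.7% of all calls were higher, against 49.2% with TMM. Deviations of same-numbered libraries correlated at -0.121, 0.103 and 0.0523 across genes, and those of differently numbered ones at -0.205 to 0.13. These values show no pairing by number, but with 3 libraries per genotype they cannot exclude that same-numbered libraries were collected together. The replicate block left 8846 calls over all genes, 20 lower neighbours and 8 lower paralogs. Of 74 single genes tested, 22 gained or lost a call under some alternative and none changed direction with a call. Members had 181 to 1115 counts in Ler and at most 31 in knu-2, so counting error limits single knu-2 values.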
